A study of Homo sapiens with 3 samples.

Results

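Genes that carry cells through mitosis were followed across 3 RNA-seq libraries of KYSE30, a long-established cell line from a human squamous carcinoma of the esophagus. The set was given as 33 gene symbols, and each symbol matched 1 row of the deposited count table, which lists 60554 genes. The rule for the set uses no measured value, though it was drawn up with earlier results of these data known. It covers the cyclin B and CDK1 kinase and its activators, the Aurora and Polo kinases, the kinetochore and its checkpoint, spindle proteins and the proteins of cytokinesis.

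The 3 libraries came from 3 stable lines, 1 library each, all made with the pLKO.1-blast vector. In the control line the genotype label reads vector, while the protocol describes a scrambled shRNA that targets no mammalian gene. The other lines carried shRNA 1 or shRNA 2 against SNORD12B, a small nucleolar RNA of the box C/D class, whose members mostly guide methylation of ribosomal RNA. All lines took up virus over 24 hours, were selected in 5 ug/mL blasticidin for 2 weeks and grew in 10% serum. The labels do not say whether a line is a clone or a pool, and each line has 1 library here. Each difference between libraries below therefore has no measure of how far cultures of 1 line vary.

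Total counts lay between 15146805 and 17336936, and genes of the mitochondrial genome took 3.94 to 4.6% of them. SNORD12B itself had 7 counts in control cells, 15 in the shRNA 1-labelled library and 1 in the shRNA 2-labelled library. The ratio to the control was 2.16 (95% exact interval 0.831 to 6.28, counting error only) for the label shRNA 1 and 0.126 (0.0028 to 0.982) for the label shRNA 2. Thus no drop was seen with the label shRNA 1, on few reads and with an interval that includes 1. How well a count table of mRNA measures this RNA of 91 bases was not tested. Every direction below therefore belongs to libraries named by their labels, with the knockdown unchecked. Of 8 squamous epithelial markers all had counts in each library, but KRT5 had only 1, 3 and 2 counts across the control, shRNA 1-labelled and shRNA 2-labelled libraries, and the summed level of the list was 1395.5, 867.1 and 1156.3 counts per 1000000 (CPM). Some single markers differed more. SOX2 stood at 104.1, 12.2 and 38.9 CPM, KRT6A at 174.7, 90.1 and 51.4 CPM, and KRT17 at 94.6, 15.5 and 52.9 CPM. TP63 stood at 156.6, 80.6 and 135.0 CPM and KRT14 at 19.0, 11.5 and 10.8 CPM. EPCAM differed little, at 213.8, 208.2 and 189.3 CPM. CDH1, which had the highest CPM of the list in each library, stood at 632.7, 448.9 and 678.0 CPM. Its level thus peaked in the shRNA 2-labelled library, so the markers did not share 1 direction. The fibroblast genes COL1A2, DCN and LUM and the endothelial gene KDR were counted 0 times in every library. Other genes of these lists were counted. In the same order of libraries, the fibroblast gene COL1A1 had 245, 142 and 230 counts and the endothelial gene CDH5 had 40, 13 and 91. At most 3 of 5 leukocyte markers had any count in a library, with summed levels of 1.32 to 2.07 CPM, and the fibroblast and endothelial lists summed to 9.47 to 16.01 and 0.921 to 5.81 CPM. The part of the differing squamous marker level in the results below was not tested.

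Entry into mitosis is driven by cyclin B bound to CDK1, which CDC25 phosphatases switch on and the anaphase-promoting complex switches off by marking cyclin B for destruction. Kinetochores assemble on centromeric chromatin that holds the histone CENPA, capture spindle microtubules through the NDC80 complex, and hold back anaphase through the checkpoint kinases BUB1 and TTK until every chromosome is attached. The mRNAs of these proteins are made in late S phase and G2, so that in growing carcinoma cells their levels are widely read as a sign of division. Their promoters are repressed by the DREAM complex in resting cells and activated by MYBL2 and FOXM1, through a cell cycle homology region (CHR, the letters TTTGAA or TTTAAA) and CCAAT boxes, which bind the factor NF-Y.

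These letters were frequent in the promoters of the members. RefSeq promoters of build GRCh38.p14, 250 bases before to 50 after the first listed start site, were matched by symbol for 28 of the 33 genes. UBE2C, AURKA, BIRC5, TTK and TPX2 had no entry. For 25 of the 28, the last 30 promoter bases stand in a GENCODE 29 transcript of the gene, and the other start sites are less certain. TTTGAA or TTTAAA, searched on both strands, stood in 24 of the 28 (85.7%), against 6625 of 27305 genes (24.3%). CCAAT on either strand (read as ATTGG on the other) stood in 22 (78.6%) against 35.7% of all genes, and 14 members (50%) against 11.3% held it at least 2 times. TTTAAA reads the same on both strands and was counted 1 time per place, and a CCAAT that runs into an ATTGG was counted on each strand. A match describes letters only, and the share was not tested. Stretches of 8 promoters are shown because they hold these letters, with or without CCAAT, in genes of differing behaviour below: CCNB1, CCNB2, PLK1 and CDC20 of the mitotic engine, HMMR and CENPE with the largest ratios to the control under the label shRNA 1, and CENPA and KIF2C, which stood below the control in each shRNA library. Matches are in capitals, each stretch runs from 20 bases before the first to 20 after the last match near the start site, and all are read along the gene.
CCNB1, chr5:69167043-69167145, plus strand: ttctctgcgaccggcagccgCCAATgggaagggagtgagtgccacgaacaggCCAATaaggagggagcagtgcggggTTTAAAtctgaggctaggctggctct
CCNB2, chr15:59105006-59105142, plus strand: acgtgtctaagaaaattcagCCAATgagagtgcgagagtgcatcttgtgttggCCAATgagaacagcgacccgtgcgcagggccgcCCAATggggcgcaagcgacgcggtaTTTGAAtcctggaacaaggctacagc
PLK1, chr16:23678781-23678885, plus strand: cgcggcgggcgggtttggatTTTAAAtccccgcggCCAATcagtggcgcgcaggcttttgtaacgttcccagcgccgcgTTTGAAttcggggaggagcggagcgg
CDC20, chr1:43358861-43358950, plus strand: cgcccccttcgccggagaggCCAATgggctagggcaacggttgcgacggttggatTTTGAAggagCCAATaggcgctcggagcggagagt
HMMR, chr5:163460517-163460635, plus strand: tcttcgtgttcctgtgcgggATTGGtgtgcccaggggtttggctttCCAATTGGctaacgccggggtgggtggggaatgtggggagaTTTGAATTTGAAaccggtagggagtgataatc
CENPE, chr4:103198380-103198431, minus strand: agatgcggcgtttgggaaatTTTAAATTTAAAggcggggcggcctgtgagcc
CENPA, chr2:26785979-26786063, plus strand: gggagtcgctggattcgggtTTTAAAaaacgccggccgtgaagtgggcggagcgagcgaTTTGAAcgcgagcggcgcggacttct
KIF2C, chr1:44739814-44739859, plus strand: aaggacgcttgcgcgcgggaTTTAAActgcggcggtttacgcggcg

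In CCNB2 the 3 CCAAT boxes shown begin 120, 87 and 54 bases before the start site and TTTGAA begins 29 bases before it. CCNB1 has CCAAT at 87 and 55 bases and TTTAAA at 30 bases before its start, in the same order of CCAAT before CHR letters. PLK1 has TTTAAA at 88 bases, CCAAT at 73 and TTTGAA at 29, so that CHR letters stand on either side of its CCAAT. In CDC20 the TTTGAA at 65 bases lies before the nearer CCAAT at 55 bases. CENPE holds TTTAAA 3 times, 2 of them adjoining in the stretch shown, and no CCAAT. KIF2C, likewise without CCAAT, has a TTTAAA that begins 3 bases before the start site and runs across it. CENPA does hold CCAAT 2 times, beginning 205 and 130 bases before its start, outside the stretch shown.

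All 33 genes were well covered, with 516 to 6883 counts in control cells, 533 to 8397 in the shRNA 1-labelled library and 611 to 10476 in the shRNA 2-labelled library, and all passed the filter on low counts. Scaled by the trimmed mean of M-values (TMM), their summed level was 4777 CPM in control cells, 5745 CPM with the label shRNA 1 and 5141 CPM with the label shRNA 2. In bulk RNA, more dividing cells and more of these RNAs per cell cannot be told apart. The plot of levels by library shows the 33 genes in order of their roles. Genes can be ranked against each other only per length. In TPM, which divides counts by the deposited gene length before scaling each library to 1 total, CDC20 was the most abundant member at 413, 627 and 403 TPM across the control, shRNA 1-labelled and shRNA 2-labelled libraries. TPX2, which activates Aurora A on the spindle, followed at 345, 433 and 367 TPM, then CCNB1 at 311, 382 and 301 TPM. CENPE, a kinetochore kinesin, was the least abundant in each library, at 10.5, 19.0 and 14.8 TPM. The same first 3 genes and the same last gene thus held their ranks in all 3 libraries.

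**Figure D1:**
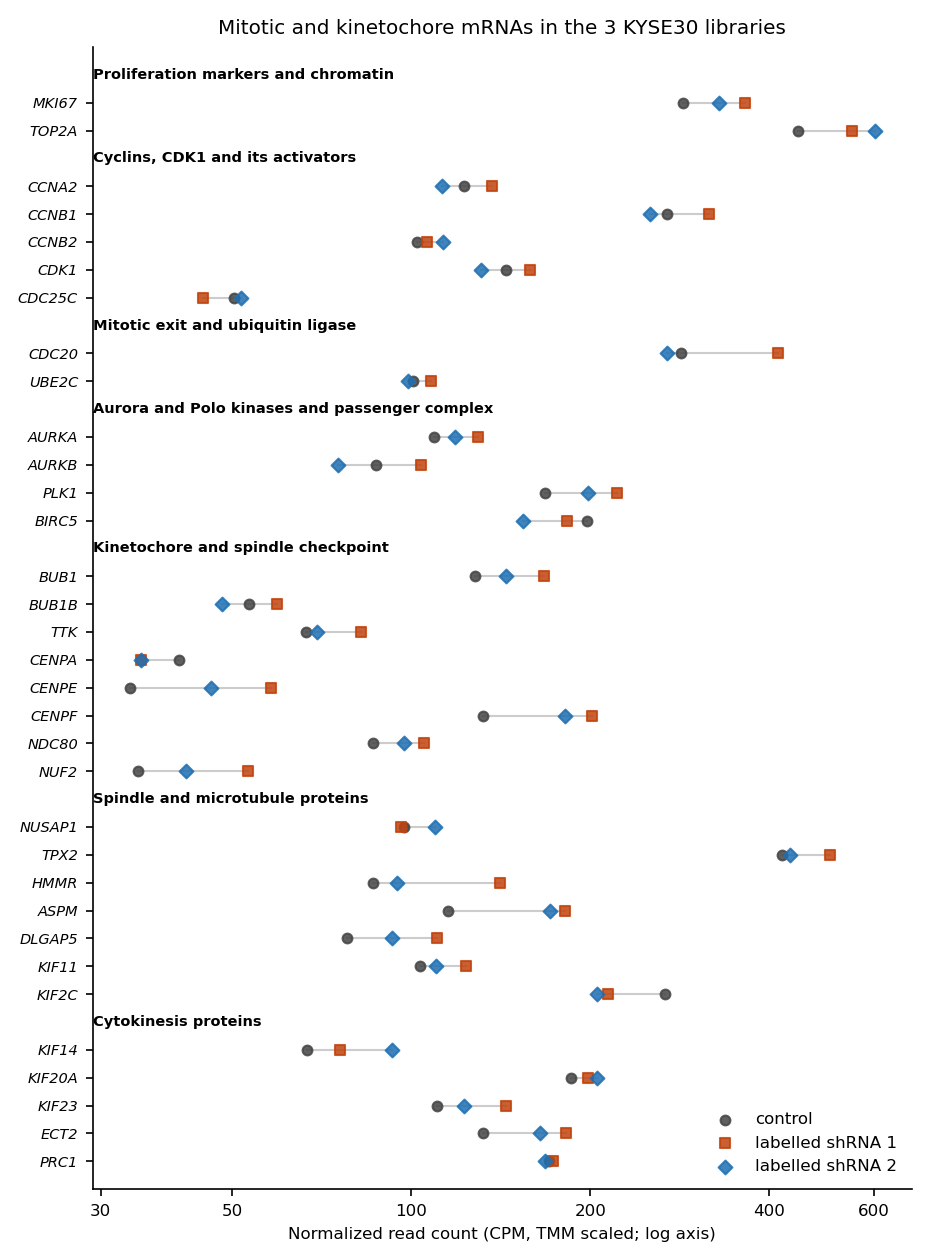
Level of each of the 33 genes (CPM on a log axis, TMM scaled) in the control library (circles), the library labelled shRNA 1 (squares) and the library labelled shRNA 2 (diamonds), grouped by role; grey lines join the lowest and highest library, and there is 1 library per line. In 24 genes the square is the rightmost symbol, and CENPE has the widest line.

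The members as a group differed little between libraries. The highest library exceeded the lowest by a median of 1.27 times, from 1.03 times in PRC1 to 1.73 times in CENPE. For the 5309 tested genes whose CPM lay within the members' range, that median was 1.26 times. The direction was less even, and 24 of 33 members were highest in the shRNA 1-labelled library, which was the highest library for 38.2% of all 17801 tested genes. Highest in the control were 3 members, CENPA, KIF2C and BIRC5, against 27% of all tested genes.

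Against the control, the library labelled shRNA 1 had a median log2 ratio of 0.26 over the members and 0.01 over all tested genes. 28 members lay above 0, as did 51.5% of all genes. Past 1.5-fold higher were 5 members, CENPE, HMMR, ASPM, NUF2 and CENPF, where the background was 10.8% of all tested genes. Past 1.5-fold lower were 0 members against 12.7%, and past 2-fold 0 members in either direction, against 3.74% higher and 5.58% lower. Among tested genes within the members' CPM range 2.83% were past 1.5-fold higher and 3.33% lower. Opposite-strand exons overlap 2.87% of the exonic bases of HMMR and only 0.15% of those of NUF2. Without the 9 members that have any such overlap, these 2 among them, 3 remained past 1.5-fold.

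The library labelled shRNA 2 stood closer to the control, with a median log2 ratio of 0.13 over the members and -0.00 over all tested genes. 22 members lay above 0 against 49.7% of all genes. Past 1.5-fold were 0 members in either direction, against a background of 9.38% higher and 9.92% lower, and hence 0 past 2-fold, against 2.98% and 3.46%. Among tested genes within the members' CPM range, only 1.98% were past 1.5-fold higher and 2.71% lower, so a count of 0 is near those shares. This comparison shares its control with the preceding one, so a control library that deviates would shift both.

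Set against each other without the control, the library labelled shRNA 2 stood below the library labelled shRNA 1. The median log2 ratio was -0.16 over the members and -0.00 over all tested genes. 7 members lay above 0 against 49.9% of all genes. CDC20 alone was past 1.5-fold lower, against a background of 14.8%, and 0 members were past 1.5-fold higher, against 15.8%. Among tested genes within the members' CPM range the shares were smaller, 7.97% lower and 6.2% higher. Past 2-fold there were 0 members, against 6.61% of all genes higher and 5.54% lower.

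With the 2 shRNA libraries taken as a group against the control, edgeR's quasi-likelihood test, adjusted over all 17801 genes, called 0 members, and its background was 0%. At an unadjusted p under 0.05 there were also 0 members, by this test, by edgeR's likelihood ratio test, by DESeq2 and by limma-voom. By the quasi-likelihood test only 73 of the 17801 genes were higher and 164 lower at that level. A count of 0 among 33 members is near that background. Fitted log2 fold changes ran from -0.35 for KIF2C to 0.63 for CENPE, with SEs of 0.29 to 0.36. ASPM had the lowest p of that edgeR test among the members, 0.0775 (adjusted p = 1.00), at a log2 fold change of 0.61 (SE 0.31). Each gene's own spread in the quasi-likelihood test comes only from the difference between the shRNA libraries, on 1 residual degree of freedom. That spread was drawn toward the spread over all genes, with 8.35 prior degrees of freedom. The SEs therefore rest largely on the shared spread, and a call of 0 does not show that levels were equal.

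**Figure D2:**
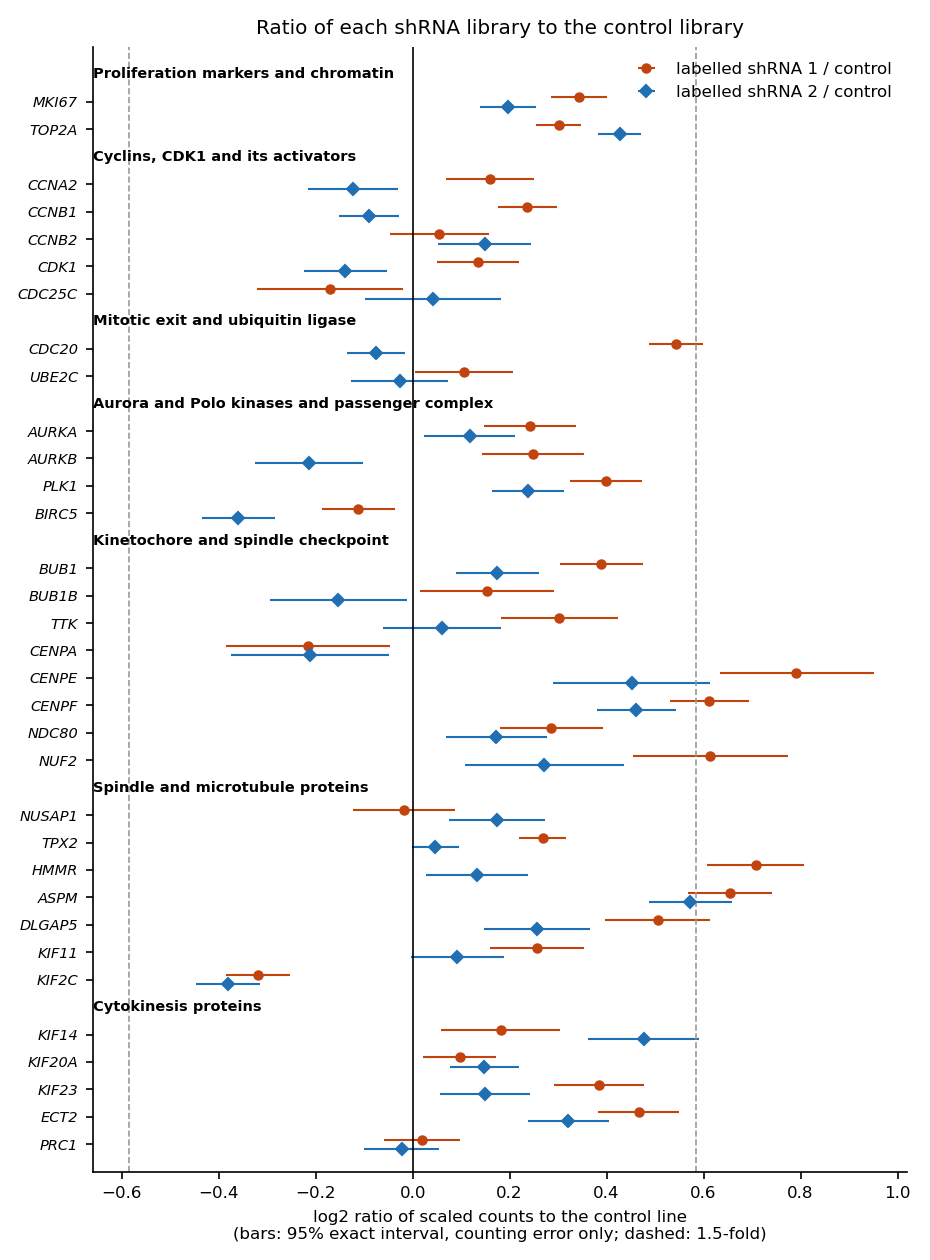
Log2 ratio of scaled counts to the control library for each of the 33 genes in the libraries labelled shRNA 1 (circles) and shRNA 2 (diamonds), with 95% exact conditional intervals that cover counting error only; dashed lines mark 1.5-fold. CENPE, HMMR, ASPM, NUF2 and CENPF lie right of the dashed line with the label shRNA 1, and KIF2C is leftmost with each label.

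MKI67, which encodes the Ki-67 protein that coats mitotic chromosomes, stood at 286.9 CPM in control cells, 364.0 CPM in the shRNA 1-labelled library and 328.8 CPM in the shRNA 2-labelled library. TOP2A, the topoisomerase that untangles sister chromatids, stood at 448.1, 552.2 and 602.3 CPM in that order. The control was the lowest library for both of these proliferation markers, but the shRNA libraries were ordered differently. Control ratios were 1.27 (95% exact interval 1.22 to 1.32) and 1.15 (1.10 to 1.19) for MKI67, and 1.23 (1.19 to 1.27) and 1.34 (1.30 to 1.39) for TOP2A, with intervals for counting error only, here and below.

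The CDK1 module followed another order. CDK1, the kinase itself, stood at 144.1 CPM in control cells, 158.1 CPM with the label shRNA 1 and 130.9 CPM with the label shRNA 2. CCNB1, its cyclin B1 partner, stood at 268.9, 316.7 and 252.6 CPM, and CCNA2, which encodes cyclin A2 of S phase and G2, at 122.6, 136.9 and 112.6 CPM in that order. These 3 genes were highest with the label shRNA 1 and lowest with the label shRNA 2, with the control between. CCNB2, the second cyclin B, stood at 102.1, 106.1 and 113.2 CPM, so that the TPM ratio of CCNB1 to CCNB2 was 2.88 in control cells, 3.27 for shRNA 1 and 2.44 for shRNA 2 by label. CDC25C, a phosphatase that activates CDK1, ran the other way, at 50.3, 44.6 and 51.7 CPM. Exons on the opposite strand overlap 9.08% of the exonic bases of CCNA2 and 9.62% of CDC25C, so those values are less certain.

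CDC20, which activates the anaphase-promoting complex, separated the shRNA libraries most among the members. It stood at 283.8 CPM in control cells, 413.5 CPM in the shRNA 1-labelled library and 269.5 CPM in the shRNA 2-labelled library. The label shRNA 1 thus stood apart while the others lay close, at control ratios of 1.46 (1.40 to 1.51) and 0.949 (0.911 to 0.99). Between the shRNA libraries the ratio was 0.652 (0.627 to 0.677). The gene (ENSG00000117399.13) lies on the plus strand of chromosome 1 from 43358955 to 43363203 in hg38, with no exon opposite it. UBE2C, the ubiquitin-conjugating enzyme of the same complex, stood at 100.5, 108.1 and 98.7 CPM, a much narrower range in the same order.

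Among the mitotic kinases, PLK1, which acts at centrosomes and kinetochores, stood at 168.0, 221.6 and 198.1 CPM across the control, shRNA 1-labelled and shRNA 2-labelled libraries. AURKA, the spindle pole kinase, stood at 109.3, 129.2 and 118.6 CPM. Both were lowest in the control. AURKB, the kinase of the chromosomal passenger complex, stood at 87.4, 103.8 and 75.3 CPM, and its level was lowest with the label shRNA 2. BIRC5, which encodes survivin of the same complex, was highest in the control, at 197.7 CPM against 182.9 and 154.1 CPM. The TPM ratio of AURKA to AURKB was 0.958 and 0.953 in the control and with the label shRNA 1 but 1.21 with the label shRNA 2. Opposite exons cover 12.9% of the exonic bases of PLK1, the largest share among the members.

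The kinetochore and checkpoint genes had the largest median ratio with the label shRNA 1 among the role groups of at least 4 genes, at a log2 ratio of 0.35, with 7 of 8 above 0. With the label shRNA 2 their median was 0.17, with 6 of 8 above 0. CENPE stood at 33.6 CPM in control cells, 58.1 CPM with the label shRNA 1 and 45.9 CPM with the label shRNA 2, or control ratios of 1.73 (1.55 to 1.93) and 1.37 (1.22 to 1.53). The gene (ENSG00000138778.11) lies on the minus strand of chromosome 4 from 103105806 to 103198409 in hg38. CENPF, a large protein that joins the kinetochore in G2, stood at 131.8, 201.4 and 181.4 CPM, with ratios of 1.53 (1.44 to 1.62) and 1.38 (1.30 to 1.46). It lies on the plus strand of chromosome 1 from 214603195 to 214664588. Both genes were lowest in the control by more than their counting error, and no replicate shows how far cultures vary.

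NUF2 and NDC80 encode partner subunits of the microtubule-binding NDC80 complex. NUF2 stood at 34.6, 53.0 and 41.8 CPM across the control, shRNA 1-labelled and shRNA 2-labelled libraries, and NDC80 at 86.2, 105.1 and 97.2 CPM. The order of the libraries was the same for the pair, but the ratio with the label shRNA 1 was 1.53 (1.37 to 1.71) for NUF2 and 1.22 (1.13 to 1.31) for NDC80. NUF2 lies on the plus strand of chromosome 1 from 163266576 to 163355764. Of the checkpoint kinases, BUB1 stood at 127.8, 167.3 and 144.2 CPM and TTK, which encodes MPS1, at 66.6, 82.1 and 69.4 CPM. BUB1B, the gene of the checkpoint protein BubR1, stood at 53.4, 59.4 and 48.0 CPM. Thus BUB1 and TTK were lowest in the control, whereas BUB1B was lowest with the label shRNA 2. CENPA, the histone that marks centromeres, was the exception in this group, at 40.7 CPM in control cells and 35.1 CPM in each shRNA library, with ratios of 0.861 (0.766 to 0.969) and 0.863 (0.771 to 0.967).

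HMMR, a spindle-associated protein also known as a hyaluronan receptor, stood apart from the control mainly with the label shRNA 1. It stood at 86.2 CPM in control cells, 140.7 CPM with the label shRNA 1 and 94.5 CPM with the label shRNA 2, with ratios of 1.63 (1.52 to 1.75) and 1.10 (1.019 to 1.18). The gene (ENSG00000072571.19) lies on the plus strand of chromosome 5 from 163460203 to 163491945, and the promoter stretch above lies inside that span. HMMR-AS1 lies opposite 2.87% of its exonic bases and had 135, 255 and 177 counts in the same order. The header gives the strand option as 1, but no source used here names the library kit, so reads of this pair cannot be told apart with certainty. ASPM, a spindle pole protein, stood at 115.3, 181.4 and 171.4 CPM, with ratios of 1.57 (1.48 to 1.67) and 1.49 (1.40 to 1.58). Here the shRNA libraries lay near each other and the control below them. The gene (ENSG00000066279.16) lies on the minus strand of chromosome 1 from 197084128 to 197146694, with no exon opposite it.

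The other spindle genes had smaller ratios than HMMR and ASPM with the label shRNA 1. DLGAP5, which encodes the microtubule-bundling protein HURP, stood at 77.8, 110.4 and 92.9 CPM across the control, shRNA 1-labelled and shRNA 2-labelled libraries. KIF11, the motor that pushes spindle poles apart, stood at 103.4, 123.4 and 110.2 CPM, and TPX2 at 420.1, 505.9 and 434.1 CPM. These 3 genes shared 1 order, with the control lowest and the label shRNA 1 highest. NUSAP1, a spindle-associated protein, instead stood at 97.3, 96.0 and 109.8 CPM. KIF2C, which encodes the microtubule depolymerase MCAK, had the lowest ratio of all members with each label, at 267.7, 214.6 and 205.6 CPM and ratios of 0.802 (0.766 to 0.84) and 0.768 (0.734 to 0.803). It lies on the plus strand of chromosome 1 from 44739818 to 44767767. An unnamed gene lies opposite 4.8% of its exonic bases and had 546, 468 and 458 counts.

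All 5 cytokinesis genes lay above 0 with the label shRNA 1 (median log2 ratio 0.18), and 4 of 5 did with the label shRNA 2 (median 0.15). ECT2, which activates the GTPase RhoA at the cell equator, stood at 131.9, 182.2 and 164.8 CPM across the control, shRNA 1-labelled and shRNA 2-labelled libraries. KIF23, a motor of the central spindle, stood at 110.4, 144.1 and 122.4 CPM. Both were lowest in the control and highest with the label shRNA 1. KIF14, a kinesin of the midbody, reversed the shRNA libraries, at 66.8, 75.8 and 92.9 CPM, and had the largest ratio of shRNA 2 over shRNA 1 among the members, 1.23 (1.14 to 1.32). KIF20A, which encodes the kinesin MKLP2, stood at 185.3, 198.1 and 205.2 CPM. PRC1, which bundles the microtubules of the central spindle, stood at 170.6, 172.9 and 167.9 CPM and hardly differed between libraries.

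Long genes lay toward the higher ratios within this group. Over the 33 members, Spearman's rho between exonic length and log2 ratio to the control was 0.45 with the label shRNA 1 and 0.63 with the label shRNA 2. Over the 5309 tested genes within the members' CPM range it was 0.08 and 0.13. The members of at least 9000 bases, CENPE, CENPF, ASPM and MKI67, had median log2 ratios of 0.63 and 0.46, against 0.04 and 0.05 for all 2065 tested genes of that length. Between the shRNA libraries, without the control, rho over the members was 0.13. These are descriptions across genes, which are not independent replicates, and the part of transcript length or RNA quality in the ratios was not tested.

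**Figure D3:**
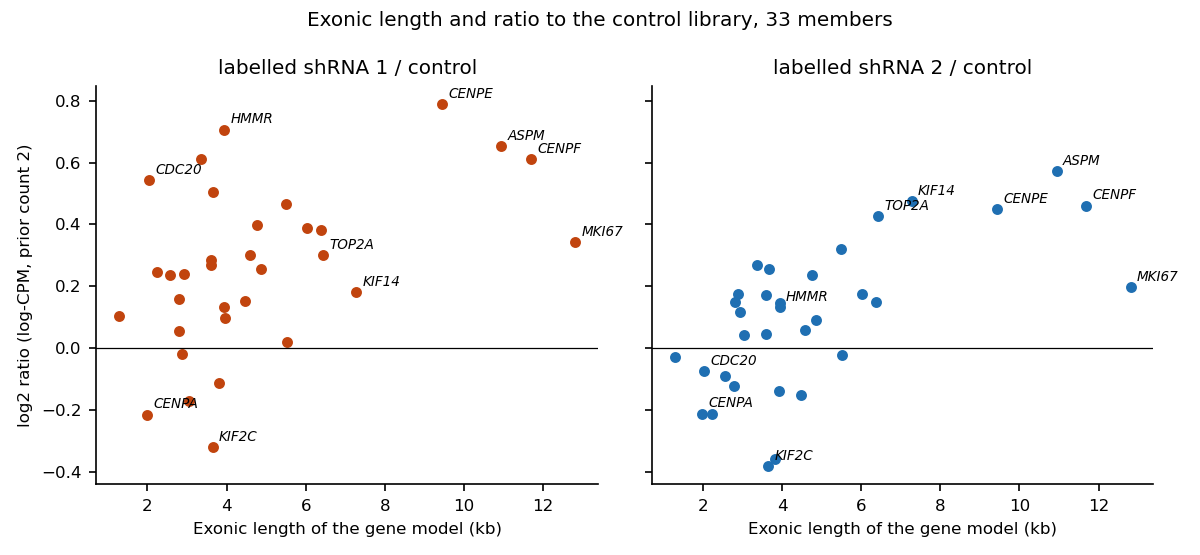
Exonic length of the gene model (kb) against the log2 ratio to the control library for the 33 genes, with the label shRNA 1 on the left and the label shRNA 2 on the right; each point is 1 gene and some are named. CENPE, ASPM and CENPF lie at the upper right of each panel, and KIF2C is the lowest point in each.

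Promoter letters did not divide the members by ratio in any clear way. The 24 members with TTTGAA or TTTAAA had median log2 ratios against control of 0.29 and 0.16 with the labels shRNA 1 and shRNA 2, and the 4 without had 0.20 and -0.04. Members with CCAAT at least 2 times (14 genes) had medians of 0.37 and 0.17, and those without CCAAT (6 genes) had 0.22 and 0.11. Those with CCAAT 1 time (8 genes) had 0.21 and 0.03. Each group spanned values on both sides of 0 for each label, except that members with CCAAT 1 time ran from 0.02 to 0.40 with the label shRNA 1.

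DNA replication genes, which are induced earlier in the cell cycle, gave a different picture with the label shRNA 2. With the label shRNA 1 the 38 genes of that list had a median log2 ratio to the control of 0.25, near the 0.26 of the mitotic genes. With the label shRNA 2 their median was -0.82, against 0.13 for the mitotic genes, and 27 of 38 were past 1.5-fold lower, against 0 of 33 and 9.92% of all tested genes. MCM6, part of the helicase that opens DNA for replication, stood at 98.2, 119.9 and 34.4 CPM across the control, shRNA 1-labelled and shRNA 2-labelled libraries. MCM4, of the same helicase, stood at 417.1, 424.0 and 154.4 CPM. MCM10, which helps start replication, stood at 34.8, 54.6 and 12.4 CPM. E2F1, a factor that drives S phase genes, stood at 34.2, 56.4 and 18.6 CPM, and CCNE2, which encodes cyclin E2, at 25.2, 40.6 and 17.1 CPM. All 5 were lowest with the label shRNA 2, as were 35.1% of all tested genes. MCM6, MCM4 and MCM10 were named for their ratios with that label, so their low level is no separate result. Over the whole list 0 of 38 genes lay above 0 against the control with that label, where 49.7% of all tested genes did. None of the mitotic genes there was past 1.5-fold lower than the control. With 1 library a line the difference between the groups has no test. For the shRNA pair edgeR's quasi-likelihood test called 0 of the 38 genes. At an unadjusted p under 0.05 it had 0 of them, against 73 higher and 164 lower of all 17801 genes.

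**Figure D4:**
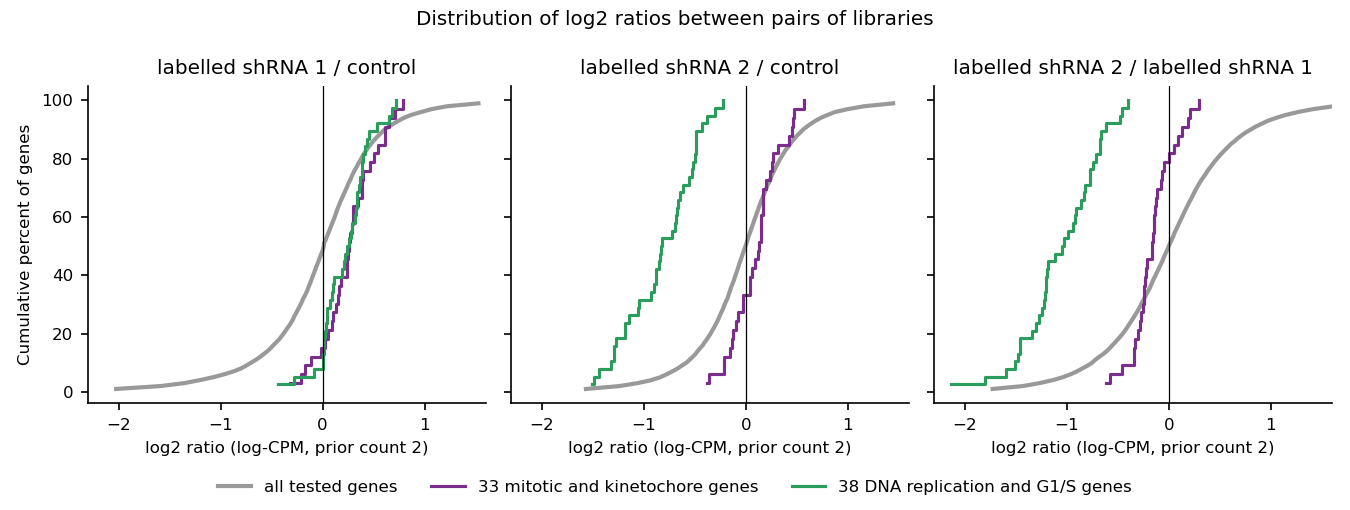
Cumulative percent of genes against log2 ratio for the 33 mitotic and kinetochore genes (purple), 38 DNA replication and G1/S genes (green) and all 17801 tested genes (grey, percentiles 1 to 99), for each pair of libraries. Purple and green run together with the label shRNA 1 and separate with the label shRNA 2, where the green median is -0.82 and the purple median 0.13.

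Lists of other division genes are given next. Of 22 further spindle, kinesin and cytokinesis genes, 4 were past 1.5-fold higher and 0 lower with the label shRNA 1 (median log2 ratio 0.24), against 10.8% and 12.7% of all tested genes. The label shRNA 2 had 0 past 1.5-fold (median 0.10), against 9.38% higher and 9.92% lower. SPDL1, which recruits dynein to kinetochores, stood at 83.8, 148.4 and 81.6 CPM across the control, shRNA 1-labelled and shRNA 2-labelled libraries, and KIF20B, a kinesin of cytokinesis, at 59.6, 105.3 and 66.5 CPM. ANLN, the scaffold of the contractile ring, stood at 340.8, 575.4 and 444.2 CPM. CEP55 of the midbody stood at 93.3, 138.1 and 127.5 CPM, and ARHGAP11A, a RhoA regulator, at 69.0, 107.6 and 95.7 CPM. The label shRNA 1 gave the highest level of each of these 5 genes.

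Kinetochore genes outside the members had medians of opposite sign. Of 22 outer kinetochore and checkpoint genes, 3 were past 1.5-fold higher with the label shRNA 1 (median 0.17), against 10.8% of all tested genes. The label shRNA 2 had 1 past 1.5-fold lower (median -0.23), against 9.92%, so that neither count stands far from its background. KNL1, the checkpoint platform of the kinetochore, stood at 38.3, 66.3 and 52.0 CPM and SGO2, which protects centromeric cohesion, at 22.1, 40.8 and 27.7 CPM across the control, shRNA 1-labelled and shRNA 2-labelled libraries. TRIP13, an ATPase that disassembles checkpoint complexes, stood at 63.0, 81.0 and 40.1 CPM, MAD2L1, the checkpoint protein MAD2, at 58.2, 74.3 and 41.3 CPM, and DSN1 of the MIS12 complex at 33.3, 36.3 and 23.1 CPM. ZWILCH, a subunit of the RZZ complex and the third gene past 1.5-fold higher, was named after its values were seen, at 52.5, 84.8 and 44.8 CPM. So KNL1 and SGO2 were lowest in the control, and TRIP13, MAD2L1, DSN1 and ZWILCH lowest with the label shRNA 2. Of 21 inner centromere genes, 0 were past 1.5-fold with the label shRNA 1 (median 0.25), against 10.8% of all tested genes higher and 12.7% lower. With the label shRNA 2, 3 were past 1.5-fold lower (median -0.15), against 9.92%, namely CENPX, CENPP and CENPS. CENPS, under the 5 CPM set for named genes, had only 20, 25 and 11 counts in the same order of libraries. CENPX stood at 68.9, 74.96 and 33.4 CPM and CENPP at 55.4, 55.5 and 34.6 CPM. CENPC, which binds CENPA nucleosomes, stood at 21.0, 31.2 and 31.4 CPM and MIS18A, needed to load CENPA, at 24.2, 36.2 and 29.03 CPM, both lowest in the control.

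Chromosome structure and ubiquitin ligase genes were mostly near the control. Of 19 condensin, cohesin and separase genes, 2 were past 1.5-fold higher with the label shRNA 1 (median 0.15), near the background of 10.8%. They were SMC2 at 58.5, 91.8 and 62.4 CPM and SMC4 at 259.5, 394.5 and 294.4 CPM, which form the core of condensin. With the label shRNA 2, 1 was past 1.5-fold lower (median -0.02), against 9.92%, the condensin II subunit NCAPD3 at 70.8, 78.6 and 40.5 CPM. NCAPH of condensin I stood at 73.3, 83.8 and 51.7 CPM and STAG1 of cohesin at 33.5, 42.7 and 47.5 CPM. Of 17 genes of the anaphase-promoting complex and its regulators, 2 were past 1.5-fold higher with the label shRNA 1 (median 0.11), again near 10.8%, ANAPC4 at 22.8, 36.4 and 26.3 CPM and ANAPC10 at 7.62, 11.6 and 7.07 CPM. Another 1 was past 1.5-fold lower with the label shRNA 2 (median -0.09), against 9.92%, ANAPC1 at 67.2, 72.3 and 41.5 CPM. Of the other subunits taken by the rule for naming genes, ANAPC5 stood at 117.4, 127.0 and 81.6 CPM and ANAPC15 at 20.2, 15.98 and 14.3 CPM.

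Of 14 passenger complex and mitotic kinase genes, 0 were past 1.5-fold with the label shRNA 1 (median 0.06), against 10.8% of all tested genes higher and 12.7% lower. With the label shRNA 2, 2 were past 1.5-fold lower (median -0.18), against 9.92%. CDC25A, a phosphatase that activates CDKs from late G1 on, stood at 35.7, 44.4 and 13.5 CPM across the control, shRNA 1-labelled and shRNA 2-labelled libraries. MASTL, the Greatwall kinase, stood at 27.9, 29.7 and 17.8 CPM. Both were lowest with the label shRNA 2. The inhibitors of CDK1 differed in pattern, with PKMYT1 at 91.8, 132.4 and 67.6 CPM and WEE1 at 95.9, 65.2 and 71.3 CPM. Of the listed genes named here, exons on the opposite strand overlap 39.5% of CENPP, 37.1% of CCNE2, 31.6% of PKMYT1, 27.1% of ANAPC15, 25.6% of SMC4, 21.2% of STAG1, 18.01% of RBBP4, 15.9% of FOXM1, 13.7% of ANAPC10 and 12.2% of MASTL, which makes their values less certain.

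**Figure D5:**
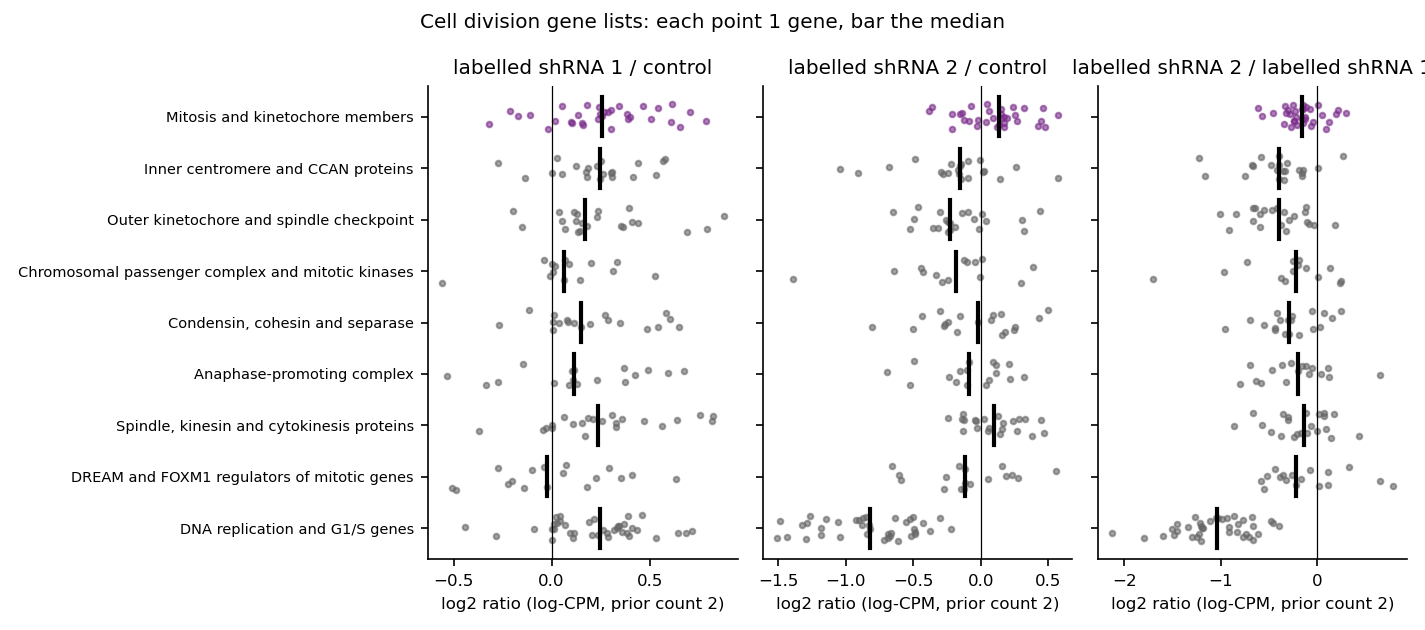
Log2 ratio of each gene (points, jittered vertically) in the 33 members and in 8 lists of other cell division genes, for each pair of libraries, with the list median as a black bar; the 3 panels have different horizontal scales. The DNA replication list has medians of 0.25, -0.82 and -1.04 in the 3 panels, and the members 0.26, 0.13 and -0.16.

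Several regulators of the mitotic genes stood lowest with the label shRNA 2. MYBL2, the activating partner of the DREAM core, stood at 175.0 CPM in control cells, 163.3 CPM with the label shRNA 1 and 110.9 CPM with the label shRNA 2. FOXM1, the forkhead factor of G2 genes, stood at 150.7, 156.7 and 124.6 CPM. TFDP1, the E2F partner, stood at 203.6, 200.4 and 133.4 CPM, and RBBP4, a DREAM subunit, at 198.0, 172.2 and 131.3 CPM. All 4 were lowest with the label shRNA 2, as were 35.1% of all tested genes, and MYBL2, TFDP1 and RBBP4 were past 1.5-fold lower there. The rule for naming genes took MYBL2, TFDP1 and RBBP4 for their ratios with that label, so their low level is no separate result. NFYB, a subunit of the factor that binds CCAAT, stood at 19.8, 30.8 and 29.1 CPM. CDKN1A, which encodes the CDK inhibitor p21, stood at 194.1, 136.4 and 234.9 CPM. The order of the libraries for CDKN1A was thus the reverse of that for CDK1, CCNB1 and CCNA2. Of the 17 regulators, 1 was past 1.5-fold higher with the label shRNA 1 (median -0.02), against 10.8% of all tested genes, and 3 past 1.5-fold lower with the label shRNA 2 (median -0.12), against 9.92%. For the regulators edgeR's quasi-likelihood test called 0 for the shRNA pair. At an unadjusted p under 0.05 it had 0 of them, against 73 higher and 164 lower of all 17801 genes.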

How the data were processed

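RNA of 3 KYSE30 libraries was analysed. The authors deposited raw counts per gene, made with featureCounts 1.6.4 (strand option 1, hg38), per the file headers; the submitters' processing notes name TopHat2, HTSeq and hg19, which differs. Coordinates are as deposited, and 29 of the 33 genes have the same identifier version and coordinates in GENCODE 29. The table also gives each gene's exonic length, per the file headers. Of 60554 genes, 17801 passed filterByExpr and were scaled by TMM in R 4.3.3 with edgeR 4.0.16. For a pair of libraries the log2 ratio is a difference of log-CPM values (prior count 2), untested, with 1.5-fold as the size to pass. The shRNA pair entered edgeR's quasi-likelihood F test against the control (two-sided, Benjamini-Hochberg, 0.05); the SE is worked back from F. DESeq2 1.42.0, limma 3.58.1 (voom) and edgeR's likelihood ratio test were alternatives. Code was tested on simulated data. Intervals are 95% exact, for counting error only. Members, lists and tests were chosen with earlier results of these data known. Named list genes are, per list, up to 3 of largest absolute ratio to control for label shRNA 2 and 2 for label shRNA 1, at 5 CPM or more, plus SNORD12B, CDKN1A, FOXM1 and MYBL2; 1 other gene of the rule is not reported here.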

Additional observations from a re-analysis of the deposited data

How the results depend on the processing

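The member medians kept their sign (log2 ratios 0.24 to 0.27, 0.13 to 0.15 and -0.16 to -0.15 for the 3 pairs of libraries) with DESeq2's size factors, total counts alone, prior counts of 0.5 and 5, no filter, and without the 9 members with opposite-strand overlap. The count past 1.5-fold with the label shRNA 1 was 3 without those members, since fewer genes were counted, and 0 at 2-fold. With the label shRNA 2 against the control it was 1 (ASPM) with total counts alone, and between the shRNA libraries 0 at 2-fold. No setting of the test called a member. Over all genes edgeR's quasi-likelihood test called 0 higher and 0 lower, against 4 and 37 with no filter, 2 and 36 by likelihood ratio, 1 and 14 by DESeq2 and 0 and 1 by limma-voom. Leaving out a shRNA library leaves no residual degrees of freedom, so no test was run; the ratios of single libraries are those values. No paired analysis was possible because each line had 1 library. The members had at least 516 counts each, and no replicate culture of any line was analysed here.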
